A study of Rattus norvegicus with 12 samples.

Results

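Immediate early genes are the genes a cell switches on first, and without new protein synthesis, when a growth factor, a cytokine, stretch, or injury reaches it. Most of them encode transcription factors whose mRNA appears and decays fast, and in skin they are known for a burst at the wound edge soon after injury. The FOS and JUN proteins pair to form activator protein 1 (AP-1), which binds the promoters of proteinases, growth factors, and keratins, while the EGR proteins are zinc-finger factors that bind GC-rich sites. The members described here are 10 of the 25620 genes in the count table, namely Fos, Fosb, Fosl1, Jun, Junb, Egr1, Egr2, Egr3, Atf3, and Ier2. They are defined by symbol, and all 10 were found in the count table and in the table of 25524 FPKM values.

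The tissue was skin from full-thickness wounds on the back of young adult male SD rats made diabetic with streptozotocin, a toxin of the insulin-producing cells, so that every group, Control included, was diabetic. Wounds were given saline (Control), the dried mucus gel of the snail Achatina fulica (d-SMG), the sulfated glycosaminoglycan purified from that gel (GAG), or a commercial alginate dressing (Alg), and tissue was taken on day 3, 7, or 14. Each of the 4 treatments had 1 library on each of the 3 days, 12 in all, and nothing in the labels says whether a library held tissue of 1 rat or of several. The question put to these samples was how the dressings change gene expression in a slow-healing wound. Levels are given below as CPM, the read count of a gene scaled to a library of 1000000 reads after TMM normalization, which evens out libraries in which a few genes take many reads.

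The libraries held 13748887 to 38302461 reads on genes. They differed in tissue makeup as well as in treatment. The d-SMG day 3 library stood apart, with 55.1 CPM summed over the 15 keratinocyte markers found (of 18 listed, none of the 15 at 0 reads in any library) against 5218 to 43130 in the other 11 libraries, and with the highest sum of skeletal muscle markers, 255166 CPM against 6063 in the lowest library, d-SMG on day 7. The TMM factors of d-SMG day 3 and GAG day 14 were the lowest, 0.741 and 0.744, so that values in these libraries depend most on the scaling. With library size alone in place of TMM the median gene moved by -0.43 (log2) in d-SMG against Control on day 3, by 0.36 on day 7, and by -0.45 in GAG against Control on day 14. In such bulk tissue, fewer cells of a type and less RNA per cell cannot be told apart.

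The promoters of 6 members (Fosb, Fosl1, Egr1, Junb, Ier2, and Egr2) are in the RefSeq table of the rat (build GRCr8), and the 250 bases before each start were searched on both strands. The CArG box, the site of serum response factor, was present in 1.5% of 33469 promoters and in Egr1 and Egr2 among the 6. The cyclic AMP response element TGACGTCA was in 1.59% of promoters and in Ier2, and its core TGACG, which also lies inside the longer motif, was in 18.2% of promoters and in Fosl1, Egr1, Junb, Ier2, and Egr2. The AP-1 site TGANTCA (6.34% of promoters) and the EGR site GCGNGGGCG (4.29%) were in none of the 6 windows, and Fosb held none of the motifs. Shown are the last 120 bases before the start, 5′ to 3′ on the strand of the gene, with matches in capitals. They are given for 3 of the 5 members that held a motif. In Egr2 (chr20:21054442-21054561, minus strand) the capitals mark the CArG box and then the core TGACG read from the other strand. In Ier2 (chr19:40399253-40399372, plus strand) they mark the full element, and in Fosl1 (chr1:212183765-212183884, plus strand) the core read from the other strand.
Egr2: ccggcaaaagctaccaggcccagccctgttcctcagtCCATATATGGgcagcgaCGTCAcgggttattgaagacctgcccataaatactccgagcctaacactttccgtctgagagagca
Ier2: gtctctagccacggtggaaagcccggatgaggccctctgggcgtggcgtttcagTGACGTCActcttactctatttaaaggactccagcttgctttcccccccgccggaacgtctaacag
Fosl1: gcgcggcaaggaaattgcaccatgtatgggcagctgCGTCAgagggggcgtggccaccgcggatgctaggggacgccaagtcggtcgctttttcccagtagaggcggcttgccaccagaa

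Per gene length, Jun and Junb were the most abundant members, with medians over the 12 libraries of 38.3 and 36.5 FPKM, the deposited values scaled by gene length and library total. Jun was the higher of the pair in 8 of 12 libraries, so that these neighbours overlapped. Fos (12.6), Atf3 (11.96), Ier2 (9.64), and Egr1 (9.33 FPKM) formed a middle group in which the order of neighbours held in only 6 or 7 of 12 libraries. Egr2 followed at 4.17 FPKM and was below Egr1 in 12 of 12 libraries. Fosl1 (3.08) and Egr3 (2.21 FPKM) overlapped with it, and Fosb was the lowest member at 0.27 FPKM, below Egr3 in 10 of 12 libraries.

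The members also differed in how far they moved between wounds. Between the lowest and the highest library Junb spanned 2.18-fold, Jun 2.64-fold, and Atf3 3.57-fold in CPM. Egr1 spanned 5.92-fold, Ier2 7.38-fold, Egr2 11.2-fold, Fosl1 16.8-fold, Fos 20.0-fold, Egr3 26.7-fold, and Fosb 84.7-fold. Ranked among the 16110 genes tested by the SD of log2 CPM over the libraries, Jun stood at percentile 28.4 and Junb at 29.8, and Fosb at 95.8. The highest library of 9 members in CPM was a day 14 library, and that of Egr2 was GAG on day 7. In FPKM the highest library of Atf3 was instead GAG on day 3.

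**Figure D1:**
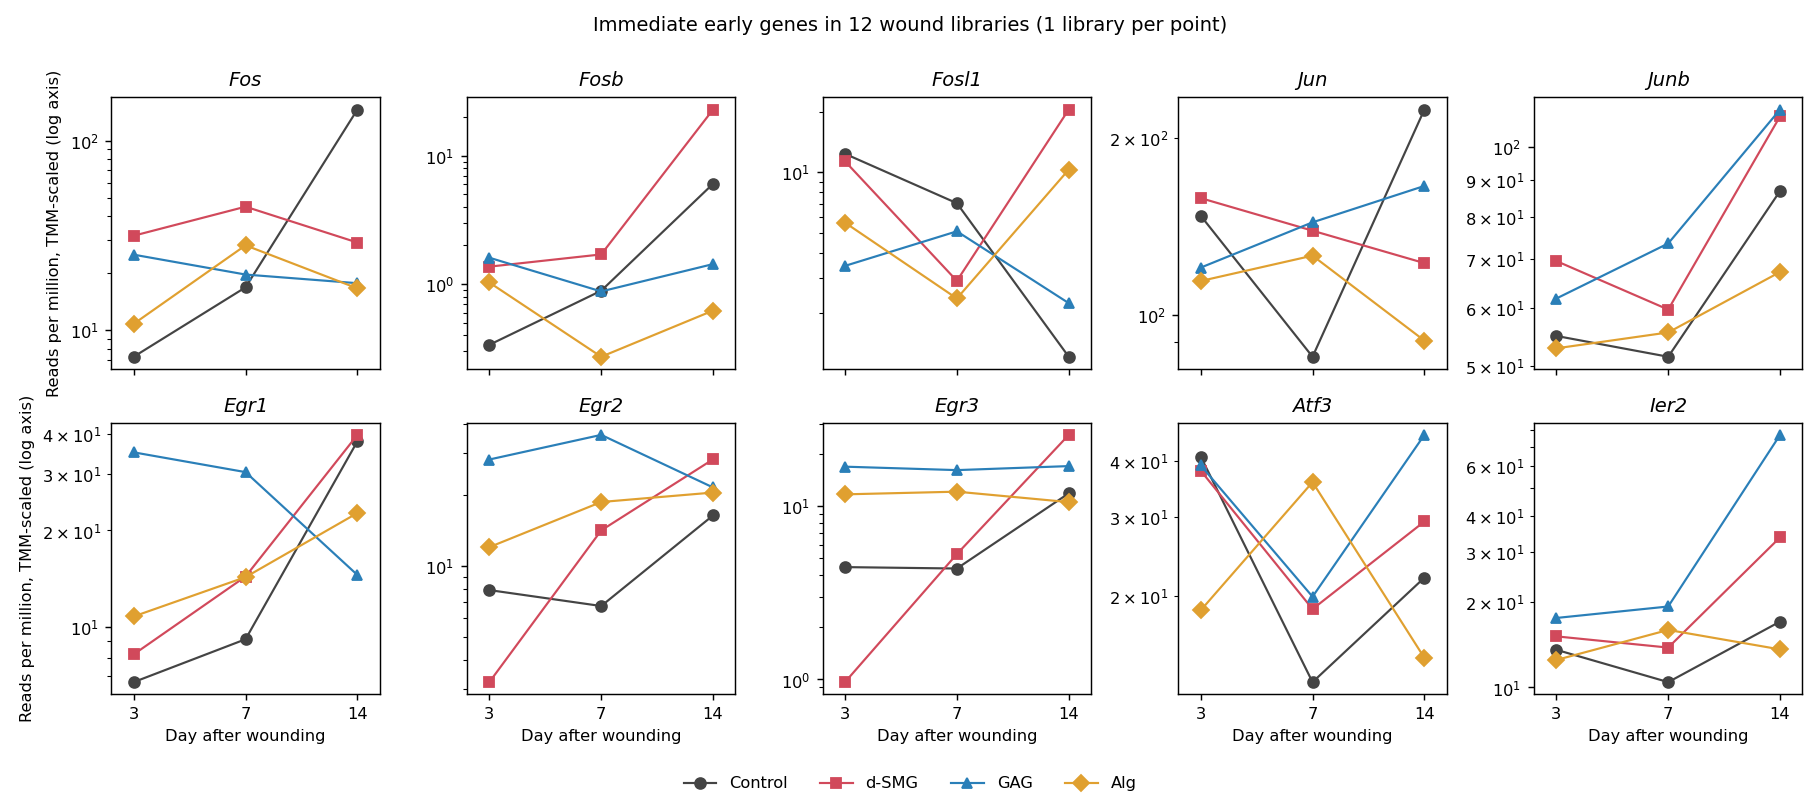
Level of each of the 10 immediate early genes (TMM-scaled CPM, log axes that differ between panels) against the day after wounding, with 1 library per point and lines joining the libraries of a treatment. Fos was highest in Control on day 14 (146 CPM), Fosb and Fosl1 in d-SMG on day 14 (23.0 and 20.5 CPM), and Ier2 in GAG on day 14 (77.1 CPM).

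Fos encodes the partner that gives AP-1 its strongest activity, and its mRNA is among the shortest lived. In Control wounds Fos stood at 7.26 CPM on day 3, 16.9 on day 7, and 146 on day 14. With d-SMG the values were 31.5, 44.8, and 29.0 CPM on the same days, with GAG 25.1, 19.7, and 17.7, and with Alg 10.8, 28.1, and 16.6. The Control library of day 14 was the highest of the 12, 3.25-fold above the next, d-SMG on day 7, while the Control library of day 3 was the lowest. The 3 dressings therefore lay above Control on day 3 and below it on day 14. On day 14 the log2 ratio to Control was -2.33 (95% interval -2.47 to -2.19) with d-SMG, -3.04 (-3.23 to -2.86) with GAG, and -3.13 (-3.31 to -2.95) with Alg. Fos was the one member at least 2-fold lower than Control in all 3 dressed libraries of day 14, as were 5.71% of all genes. These intervals are exact (Clopper-Pearson), cover counting error only, and say nothing of the spread between animals, since each group of a day is 1 library. The 3 dressings of a day share 1 Control library, so their ratios are not independent of each other. In that Control library the heat shock gene Hspa1b, a chaperone induced by damaged protein, was also at its highest, 161 CPM against 23.5 to 98.3 in the others. The 10 heat shock genes together did not peak there, summing to 4502 CPM against a median of 5290 CPM over the 12 libraries. Whether Fos and Hspa1b are linked there was not tested.

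Fosb, a close relative of Fos, was low in most libraries. Control wounds held 0.336, 0.887, and 6.05 CPM on days 3, 7, and 14, and d-SMG wounds 1.37, 1.70, and 23.0. GAG wounds gave 1.61, 0.876, and 1.43 CPM, and Alg wounds 1.03, 0.271, and 0.621. Fosb thus had 1 library far above the others, d-SMG on day 14, 3.79-fold above the next. Many values rest on few reads, 8 in Control on day 3 and 4 in Alg on day 7, against 365 in d-SMG on day 14. On day 14 the log2 ratio to Control was 1.92 (1.63 to 2.23) with d-SMG, -2.08 (-2.82 to -1.41) with GAG, and -3.28 (-4.38 to -2.36) with Alg. Fosb was also the one member at least 2-fold higher than Control in all 3 dressed libraries of day 3, as were 1.53% of all genes.

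Fosl1 encodes FRA-1, an AP-1 subunit of migrating keratinocytes and fibroblasts. It went from 12.3 CPM on day 3 to 7.03 on day 7 and 1.22 on day 14 in Control wounds. The d-SMG libraries held 11.3, 2.90, and 20.5 CPM, the GAG libraries 3.44, 5.10, and 2.25, and the Alg libraries 5.63, 2.37, and 10.3. Control on day 14 was the lowest of the 12 libraries and d-SMG on day 14 the highest, so that the Control library with the most Fos held the least Fosl1. The log2 ratio on day 14 was 4.07 (3.48 to 4.72) with d-SMG, 3.08 (2.47 to 3.75) with Alg, and 0.88 (0.09 to 1.69) with GAG, over 25 reads in the Control library. On day 3, in contrast, the ratio was -1.84 (-2.27 to -1.44) with GAG and -1.13 (-1.46 to -0.82) with Alg.

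Jun encodes the central partner of AP-1, which can bind DNA with itself or with a FOS protein. Control wounds gave 148, 84.8, and 224 CPM on days 3, 7, and 14, and the libraries of days 7 and 14 were the lowest and the highest of the 12. Levels with d-SMG were 158, 139, and 123 CPM, with GAG 120.4, 144, and 166, and with Alg 114, 126, and 90.4. The dressed libraries lay within 90.4 to 166 CPM on all days, inside the range of Control. Jun was at least 2-fold from Control in 1 of the 9 comparisons, Alg on day 14, with a log2 ratio of -1.31 (-1.40 to -1.22).

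Junb, which encodes a JUN protein that restrains JUN at many promoters, had the smallest span of the members, although the SD of log2 CPM was lower for Jun (0.38 against 0.39). It stood at 55.0, 51.5, and 86.9 CPM in Control, at 69.6, 59.7, and 110.03 with d-SMG, at 61.9, 73.6, and 112 with GAG, and at 52.9, 55.6, and 67.3 with Alg. Within each treatment the day 14 library was the highest of the 3. No dressing differed from Control by 2-fold on any day, the ratios running from -0.37 (-0.48 to -0.26) with Alg on day 14 to 0.52 (0.40 to 0.63) with GAG on day 7.

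Egr1, the family member that links growth factor signals to matrix and vessel genes, was higher on each later day in Control wounds, at 6.72, 9.15, and 38.0 CPM. With d-SMG it was 8.20, 14.4, and 39.8 CPM, and with Alg 10.8, 14.3, and 22.7. GAG wounds had the reverse order, 35.1 CPM on day 3, 30.4 on day 7, and 14.5 on day 14. Against Control, GAG gave a log2 ratio of 2.38 (2.13 to 2.64) on day 3, of 1.73 (1.48 to 2.0) on day 7, and of -1.39 (-1.61 to -1.17) on day 14. Neither d-SMG nor Alg differed from Control by 2-fold on any day.

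Egr2, known from myelinating Schwann cells and from hair follicles, was lowest in d-SMG on day 3. Control libraries held 7.89, 6.76, and 16.4 CPM on days 3, 7, and 14, d-SMG libraries 3.22, 14.1, and 28.3, and Alg libraries 12, 18.6, and 20.4. The GAG libraries, at 28.2, 35.9, and 21.5 CPM, were all above the highest Control library, as in 10.2% of all genes. In FPKM this was not so, GAG on day 14 being at 4.01 against 4.06 in Control on day 14. The log2 ratio of GAG to Control was 1.84 (1.59 to 2.09), 2.41 (2.11 to 2.72), and 0.39 (0.17 to 0.62). On day 7 Egr2 was at least 2-fold higher than Control with all 3 dressings, as were 3.09% of all genes, with ratios of 1.06 (0.73 to 1.41) for d-SMG and 1.46 (1.13 to 1.81) for Alg.

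Egr3, which EGR1 and calcium signals induce, resembled Egr2. Its Control values were 4.45, 4.37, and 11.9 CPM, and its d-SMG values 0.965, 5.29, and 25.8, from 12 reads on day 3 to 410 on day 14. Levels in CPM hardly moved with the day under GAG, 16.9, 16.2, and 17.0, or under Alg, 11.7, 12.1, and 10.6. In FPKM the GAG values fell, at 3.48, 3.05, and 2.42, and the Alg values were 2.34, 2.11, and 2.17. The log2 ratio was 1.93 (1.60 to 2.26) with GAG and 1.40 (1.06 to 1.74) with Alg on day 3, and 1.89 (1.51 to 2.28) and 1.47 (1.05 to 1.91) on day 7. In d-SMG it was -2.21 (-3.20 to -1.34) on day 3 and 1.12 (0.89 to 1.36) on day 14.

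Atf3 encodes a stress-induced repressor of the ATF family that can pair with JUN. Control gave 41.0 CPM on day 3, 12.8 on day 7, and 22.0 on day 14, d-SMG 38.1, 18.7, and 29.3, and GAG 39.2, 19.9, and 45.8. In those 3 treatments day 7 was the lowest day, whereas Alg wounds had their highest value on day 7, with 18.6, 35.9, and 14.5 CPM. The log2 ratio of Alg to Control was accordingly -1.14 (-1.32 to -0.97) on day 3, 1.49 (1.24 to 1.73) on day 7, and -0.60 (-0.83 to -0.36) on day 14. With GAG it reached 1.06 (0.89 to 1.24) on day 14, a value that was 0.61 with library size alone.

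Ier2, a small nuclear protein that rises with the FOS and EGR genes after growth factor addition, stood at 13.6, 10.4, and 17.0 CPM in Control. The values were 15.1, 13.8, and 33.7 CPM with d-SMG, 17.5, 19.2, and 77.1 with GAG, and 12.5, 15.9, and 13.6 with Alg. GAG on day 14 was the highest library, 2.29-fold above the next. All 3 GAG libraries were above the highest Control library, as in 10.2% of all genes. The log2 ratio of GAG to Control was 0.37 (0.14 to 0.60), 0.88 (0.63 to 1.14), and 2.18 (2.0 to 2.36) on days 3, 7, and 14.

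Counted by day, different members stood at least 2-fold from Control. On day 3 d-SMG was higher for Fos and Fosb (9.47% of all genes were called higher) and lower for Egr2 and Egr3 (14.5% lower). In the GAG wound of day 3 Fos, Fosb, Egr1, Egr2, and Egr3 were higher (14.6%) and Fosl1 was lower (11.0%), the largest set of members called in any of the 9 comparisons. Alg on day 3 was higher for Fosb and Egr3 (11.5%) and lower for Fosl1 and Atf3 (8.73%). On day 7 the calls were Fos and Egr2 higher (6.92%) and Fosl1 lower (6.38%) with d-SMG. With GAG the 3 Egr genes were higher on that day (13.6%) and no member was lower (12.5%). Alg on day 7 was higher for Egr2, Egr3, and Atf3 (12.5%) and lower for Fosb and Fosl1 (11.9%). On day 14 d-SMG was higher for Fosb, Fosl1, and Egr3 (12.6%) and lower for Fos (16.1%). GAG was then higher for Atf3 and Ier2 (27.8%) and lower for Fos, Fosb, and Egr1 (30.1%), and Alg was higher for Fosl1 (9.1%) and lower for Fos, Fosb, and Jun (12.2%). On day 14 with GAG 5 of 10 members were called in a comparison in which more than 1 in 2 genes were called. No member was at least 2-fold lower than Control with all 3 dressings on day 3 (2.23% of genes) or day 7 (1.78%), or higher with all 3 on day 14 (4.31%). The median log2 ratio of the members was highest in GAG on day 3, 1.08, and lowest in Alg on day 14, -0.48, while the median of all genes stayed between -0.05 and 0.05.

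**Figure D2:**
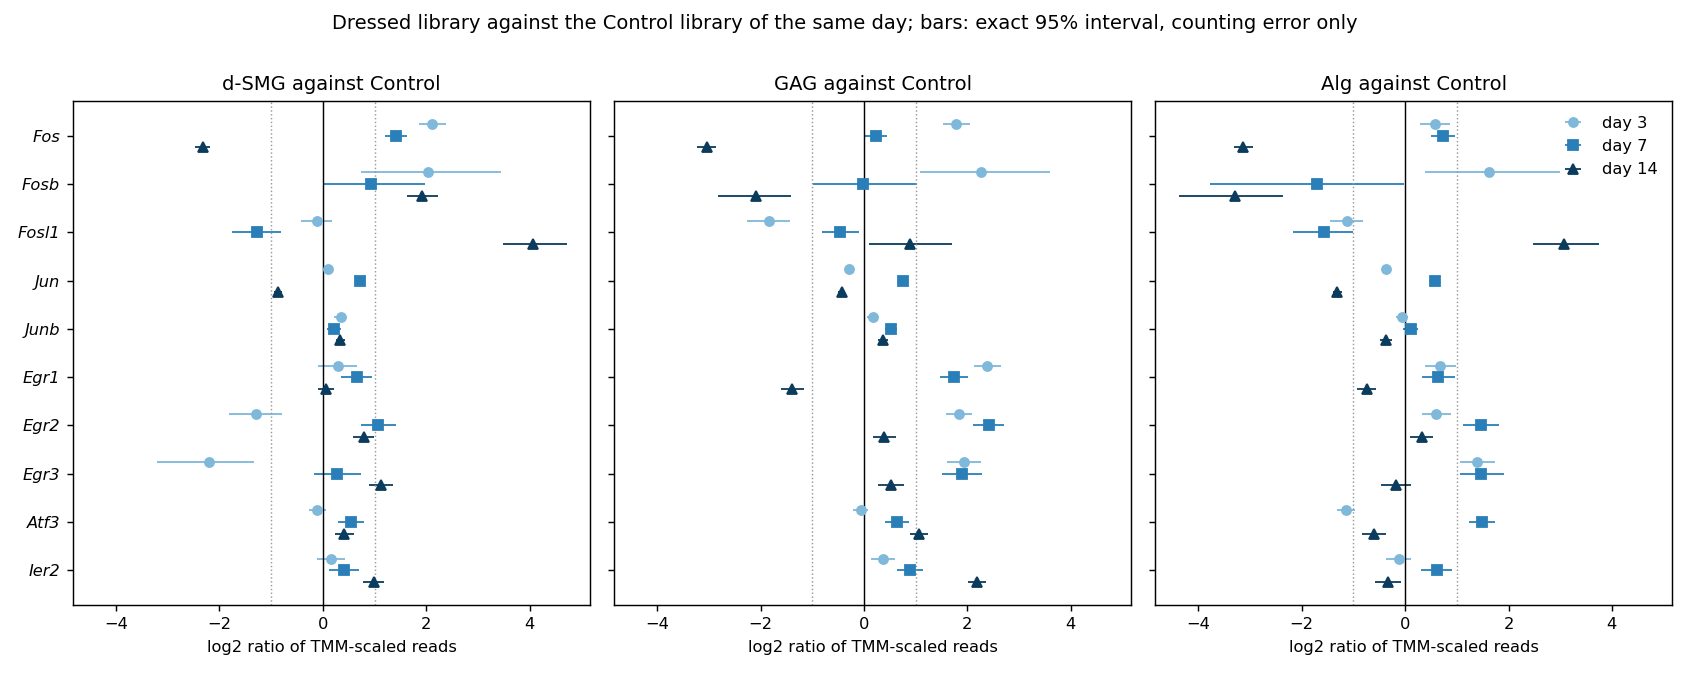
Log2 ratio of each dressed library to the Control library of the same day for the 10 members, with exact 95% intervals for counting error only and dotted lines at 2-fold. On day 14 Fos lay at -2.33, -3.04, and -3.13, while Fosl1 lay at 4.07 with d-SMG and 3.08 with Alg.

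The direction of each ratio was then followed over the days. Fosb, Junb, Egr1, and Ier2 were higher than Control on 3 of 3 days with d-SMG (8.46% of all genes were), Junb, Egr2, Egr3, and Ier2 with GAG (14.4%), and Egr2 with Alg (12.6%), while no member was lower on all 3 days with any dressing (10.3%, 12.9%, and 11.6%). With library size alone the lists became Fosb for d-SMG (6.61%), Egr3, Atf3, and Ier2 for GAG (13.8%), and Egr2 for Alg (15.2%). Only Egr2, Egr3, and Ier2 with GAG had 3 dressed libraries that did not overlap the 3 Control libraries, as did 10.2% of all genes in that direction, and with library size alone only Egr3 and Ier2 did (9.82%). In the other direction with GAG (7.1% of genes), and with d-SMG (2.0% higher, 1.46% lower) and Alg (5.93% higher, 4.41% lower), no member had such separate libraries.

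To ask which members differed from Control over the days, each dressing was set against Control in 1 edgeR fit of all 12 libraries with treatment and day as terms. The spread in this fit is what those terms leave over all 4 treatments, including any dressing effect that differs by day. No member and no gene of the 16110 tested passed an FDR of 0.05 (Benjamini-Hochberg) in any of the 3 comparisons (0.0% called). At an unadjusted p under 0.05 there were 218 genes (1.35%) for d-SMG, 1492 (9.26%) for GAG, and 502 (3.12%) for Alg, and the DESeq2 test called 9, 288, and 88 genes, none of them a member. Members at that unadjusted level were Egr2 and Ier2 for GAG, both higher, where 5.57% of genes were higher and 3.69% lower. None were for d-SMG (0.788% of genes higher, 0.565% lower) or for Alg (2.22% higher, 0.894% lower). Egr2 had a log2 fold change of 1.63 ± 0.57 (SE) with GAG and an adjusted p of 0.496. Ier2 followed with 1.21 ± 0.44 (SE) and an adjusted p of 0.499, and it was at 0.63 without the GAG library of day 14. Without the d-SMG library of day 3, which enters the shared spread and the day terms, Egr2 was at 1.58 with an adjusted p of 0.174. When both d-SMG day 3 and GAG day 14 were left out, a choice made after seeing the data, Egr2 was called at 2.0 with an adjusted p of 0.0343, among 177 genes. Over all other alternatives the adjusted p of Egr2 ran from 0.136 in DESeq2 to 0.892 without Control on day 14. With d-SMG the largest change was Fosb, 1.63 ± 0.90 (SE), which was 0.36 without the d-SMG library of day 14. The highest fold change with Alg was that of Egr3, 1.02 ± 0.74 (SE), which was 0.62 without the Alg library of day 3.

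Fos was the lowest member in each of the 3 comparisons, at -0.18 ± 0.94, -0.88 ± 0.95, and -1.19 ± 0.94 (log2 fold change and SE) for d-SMG, GAG, and Alg. These values turned on the Control library of day 14. Without it they were 1.72, 1.03, and 0.74. The median log2 fold change of the 10 members was 0.30 for d-SMG, 0.44 for GAG, and -0.02 for Alg, beside -0.03, 0.00, and -0.03 for all genes.

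**Figure D3:**
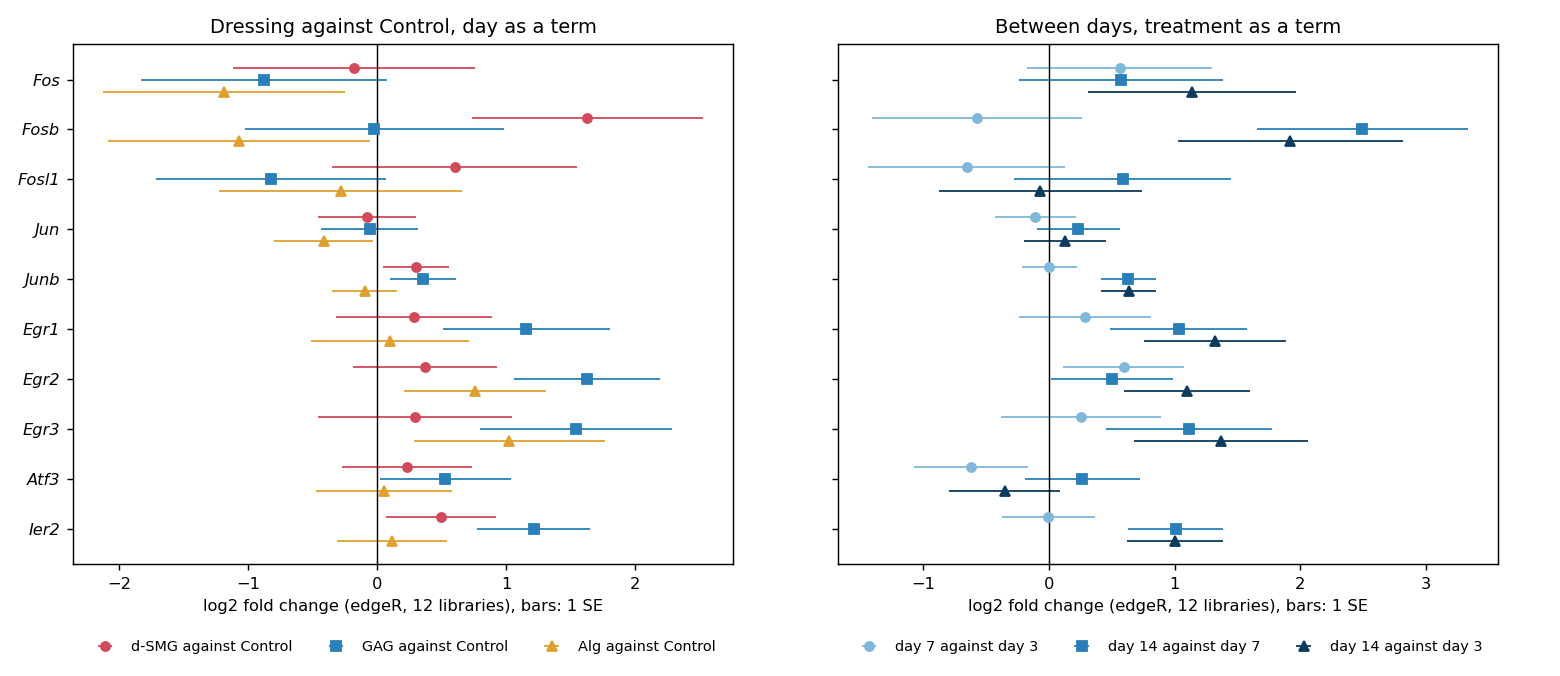
Log2 fold changes (edgeR, 12 libraries) of the 10 members with bars of 1 SE, for each dressing against Control on the left and between days on the right. No bar belongs to a gene called at an FDR of 0.05, and on the right the 10 values for day 14 against day 7 are all above 0.

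The days were compared in the same fit, over the 4 treatments, to follow the members through healing. No gene passed an FDR of 0.05 between any pair of days (0.0% called), and 292 genes (1.81%) had an unadjusted p under 0.05 for day 7 against day 3, 502 (3.12%) for day 14 against day 7, and 798 (4.95%) for day 14 against day 3. DESeq2 called 0, 7, and 39 genes, with no member among them. The members' median was -0.00 from day 3 to day 7, where Fosl1 was lowest (-0.65 ± 0.78, SE) and Egr2 highest (0.60 ± 0.48, SE), the latter at 0.18 without the d-SMG library of day 3. No member was at an unadjusted p under 0.05 between these days (1.04% of genes higher, 0.77% lower). From day 7 to day 14 all 10 fold changes were positive, with a median of 0.61 against 0.01 for all genes. Within single treatments some members were lower on day 14 than on day 7. These were Fos, Jun, Egr3, Atf3, and Ier2 with Alg and Fos, Fosl1, Egr1, and Egr2 with GAG. With d-SMG they were Fos and Jun, and in Control Fosl1. Fosb, Junb, and Ier2 were at an unadjusted p under 0.05, all higher (1.6% of genes higher, 1.51% lower), each with an adjusted p of 0.904. No member was at that level in edgeR without d-SMG on day 7 or without d-SMG on day 14, and 4 were without Alg on day 7. Fosb had the largest value, 2.49 ± 0.84 (SE), which was 1.63 without d-SMG on day 14. Junb was at 0.63 ± 0.22 (SE) and Ier2 at 1.01 ± 0.38 (SE), the latter at 0.58 without GAG on day 14. The smallest was Jun at 0.23 ± 0.33 (SE), which was -0.05 without Control on day 7 and -0.04 without Control on day 14.

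From day 3 to day 14, 8 of 10 members had a positive fold change and the median was 1.05, again beside 0.01 for all genes. Junb, Ier2, and Egr1 were at an unadjusted p under 0.05, all higher (3.08% of genes higher, 1.87% lower), each with an adjusted p of 0.882. No member was at that level in edgeR without d-SMG on day 14, and 5 were without GAG on day 14. Junb was at 0.64 ± 0.22 (SE) and Ier2 at 1.0 ± 0.38 (SE), the latter at 0.59 without GAG on day 14. Egr1 was at 1.32 ± 0.57 (SE) and at 0.85 without Control on day 14. Fosb, at 1.92 ± 0.90 (SE), ranged from 1.12 to 2.67 as single libraries were left out, and Atf3 was the lowest member at -0.35 ± 0.44 (SE). For no member did the 4 libraries of one day lie apart from the 4 of another. Among all genes 1.1% did so upward and 0.944% downward from day 3 to day 7, 0.875% and 0.701% from day 7 to day 14, and 0.956% and 0.646% from day 3 to day 14.

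Beside these changes the tissue makeup of the libraries moved. The summed keratinocyte markers were 6233, 5218, and 14335 CPM in Control on days 3, 7, and 14, 55.1, 10335, and 23263 with d-SMG, 15419, 23477, and 43130 with GAG, and 11877, 18715, and 23826 with Alg. All 3 GAG libraries were thus above all 3 Control libraries in these markers, as they were in Egr2, Egr3, and Ier2 and in 10.2% of all genes. With library size alone this held for Egr3 and Ier2 but not for Egr2. The 15 hair follicle markers ran from 4.99 CPM in d-SMG on day 3, where 4 of them were at 0 reads, and 12.8 and 18.3 in Control on days 3 and 7, where 2 were, to 9420 in Alg on day 14. Over the 12 libraries, the correlation of log2 CPM with the keratinocyte markers was 0.89 for Egr3, 0.85 for Egr2, 0.52 for Egr1, 0.36 for Ier2, and 0.24 for Junb, and between -0.34 and 0.11 for the other 5 members. Without d-SMG on day 3 it was 0.83 for both Egr3 and Egr2, 0.77 for Ier2, 0.74 for Junb, and 0.57 for Egr1. With the hair follicle markers it was 0.85 for Egr2, 0.80 for Egr3, and 0.67 for Egr1. The points of these correlations share a treatment, a day, and a library's scaling, and no p is given. The part of keratinocytes and follicles in the levels of the Egr genes was not tested. Macrophage markers ranged from 769 CPM (GAG on day 14) to 4675 (d-SMG on day 7), and their correlation was -0.66 with Ier2 and -0.53 with Egr3. The 10 endothelial markers, none at 0 reads in any library, summed to between 383 CPM (d-SMG on day 14) and 999 (Control on day 7). Their correlation was -0.78 with Egr1, -0.77 with Junb, -0.70 with Egr3, -0.69 with Ier2, and -0.68 with Egr2, and between -0.58 and 0.20 with the other 5 members. Both from day 7 and from day 3 to day 14 all 10 endothelial markers had a negative fold change, with medians of -0.68 and -0.62 (log2). In each comparison 3 of them were at an unadjusted p under 0.05 in edgeR (1.51% and 1.87% of all genes lower), and none passed the FDR. With GAG against Control 4 of the 10 were lower at that unadjusted level and none higher (3.69% and 5.57% of all genes), with a median of -0.72. In that comparison all 15 hair follicle markers were higher at the same level, with a median of 6.82. The same held with Alg for all 15 (median 5.73, 2.22% of all genes higher), and with d-SMG for 9 of 15 (median 4.36, 0.788%). With GAG 6 of 13 macrophage markers were lower and none higher, with a median of -1.36. With Alg 4 were lower and none higher (median -0.86, 0.894% of all genes lower), and with d-SMG none was at that level. No endothelial marker was at that level with d-SMG or Alg, and again none of these markers passed the FDR. For Atf3 the correlations of largest size were -0.64 with the neutrophil markers and -0.54 with the fibroblast markers. The 9 neutrophil markers were low, with sums from 15.0 to 177 CPM and up to 3 of them at 0 reads in a library. The part of these cell types in the members' levels was not tested.

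**Figure D4:**
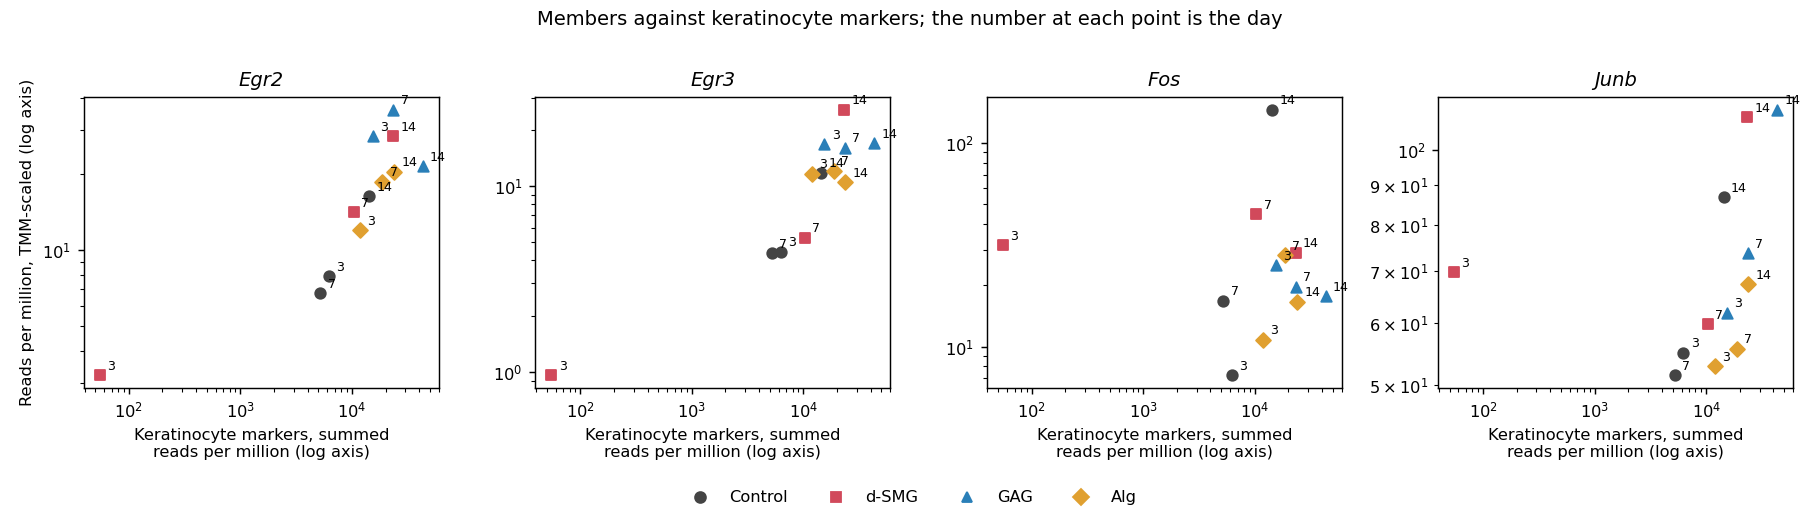
Levels of Egr2, Egr3, Fos, and Junb (vertical) against the summed keratinocyte markers (horizontal), both in TMM-scaled CPM on log axes, with 1 point per library and its day beside it. Over the 12 libraries r with the markers was 0.85 for Egr2, 0.89 for Egr3, and -0.05 for Fos. The d-SMG library of day 3 lay far to the left at 55.1 CPM. From day to day Egr2 and Egr3 moved in the direction of the markers in Control and d-SMG. With GAG the markers rose on each later day, while Egr3 stood at 16.9, 16.2, and 17.0 CPM. Egr2 with GAG fell from 35.9 CPM on day 7 to 21.5 on day 14. With Alg the markers rose too, while Egr3 stood at 11.7, 12.1, and 10.6 CPM.

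The members did not move as 1 group. Of the 45 pairs, 33 had a positive correlation over the 12 libraries, with a median r of 0.30, and 4 pairs reached 0.7. These were Egr2 with Egr3 (0.93), Junb with Ier2 (0.86), Egr1 with Egr2 (0.81), and Egr1 with Egr3 (0.74). The lowest was Fos with Fosl1 (-0.53). Of all members Junb was nearest to the mean of the 10 (r = 0.90), Fosl1 the farthest (r = -0.14). The mean of the standardised levels was highest in d-SMG on day 14 (1.10 SD), then GAG (0.63 SD) and Control (0.62 SD) on day 14, and lowest in Control on day 7 (-0.88 SD). Among 14105 other genes, those most like this mean over the 12 libraries were Ice2 (r = 0.89), Clec4f (0.86), Eml5 (0.84), Klhl29 (0.84), Adam11 (0.83), Fst (0.83), Pkib (0.83), Zbtb7a (0.82), Atf5 (0.82), and Zfp385d (0.82). Taken singly, Egr3 was most like Tp63 (r = 0.97), the transcription factor of basal keratinocytes, with Fam169a (0.97) and Tnk1 (0.97) close behind. Egr2 was most like Tmprss13 (0.97), an epidermal protease, with Sema3e (0.97) and Fhdc1 (0.97) close behind. Fos was most like Nsg2 (0.93), Jun like Cmc1 (0.93), Atf3 like Neu3 (0.93), and Ier2 like Zfand2b (0.95).

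The other genes of the response were followed in lists, and none of their genes passed an FDR of 0.05 in any of the 6 comparisons, with adjusted p-values from 0.510 to 1.0 for those named here. From each list the pair of genes with the smallest p is given. Of 8 other AP-1 genes, Batf2 was at -2.76 ± 1.09 (log2 fold change and SE) with Alg and Batf3 at 0.84 ± 0.28 between days 7 and 14. Among the other immediate early transcription factors, of which 14 were tested, Nr4a3, an orphan nuclear receptor, was at 2.31 ± 0.96 with d-SMG. Its levels with d-SMG were 12.7, 1.57, and 10.2 CPM on days 3, 7, and 14 against 3.02, 0.819, and 1.42 in Control. Myc, a driver of cell growth, was at 1.01 ± 0.42 with GAG, with 21.8, 28.3, and 45.9 CPM against 24.2, 12.7, and 10.7 in Control. By day and with d-SMG, 2 of these factors were at least 2-fold higher than Control on day 3 and 0 lower (9.47% and 14.5% of all genes). On day 7 none was called with d-SMG (6.92% higher and 6.38% lower). On day 14 with d-SMG 7 of 14 were higher and 0 lower (12.6% and 16.1%), and the median log2 ratio was 0.91. With GAG 0 were higher and 3 lower on day 3 (14.6% and 11.0%), and 6 of 15 higher and 1 lower on day 7 (13.6% and 12.5%). On day 14 with GAG 3 were higher and 2 lower (27.8% and 30.1%). With Alg none was called on day 3 (11.5% and 8.73%). On day 7 with Alg 2 were higher and 2 lower (12.5% and 11.9%), and on day 14, 3 were higher and 2 lower (9.1% and 12.2%).

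Of 20 rapidly induced feedback inhibitors, Dusp5, a phosphatase that switches off ERK, was at 1.08 ± 0.44 (SE) with GAG, and Ier3, a survival protein, at 0.71 ± 0.26 between days 7 and 14. Among 15 upstream kinases and factors, Elk3, an ETS factor that docks on serum response factor, was at -1.08 ± 0.42 with GAG, and Mapk9, a JUN kinase, at -0.49 ± 0.22 between days 7 and 14. In GAG on day 14, where 30.1% of all genes were at least 2-fold lower and 27.8% higher, 6 of the 15 upstream genes were lower and 1 was higher. At most 1 was higher and 1 lower in each of the other 8 comparisons, where 6.92% to 14.6% of all genes were higher and 6.38% to 16.1% lower.

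The list of 15 known target genes of AP-1 and EGR factors holds proteinases and EGF-type ligands. Plau, the urokinase of migrating cells, was at -1.06 ± 0.39 (SE) between days 3 and 14, and Areg, a ligand of the EGF receptor, at 1.58 ± 0.72 with GAG. Counted at 2-fold on day 3, 2 of 14 targets were higher and 5 lower with d-SMG (9.47% and 14.5% of all genes), 2 higher and 4 lower with GAG (14.6% and 11.0%), and 1 higher and 1 lower with Alg (11.5% and 8.73%). On day 7 they were 2 higher and 2 lower with d-SMG (6.92% and 6.38%), 2 higher and 6 lower with GAG (13.6% and 12.5%), and 0 higher and 7 lower with Alg (12.5% and 11.9%). On day 14, 9 of 14 were higher and none lower with d-SMG (12.6% and 16.1%), 4 of 13 higher and 2 lower with GAG (27.8% and 30.1%), and 8 of 15 higher and none lower with Alg (9.1% and 12.2%). Over days 3, 7, and 14 the median log2 ratio of the targets was -0.22, -0.60, and 1.25 with d-SMG, -0.48, -0.38, and -0.05 with GAG, and 0.00, -0.96, and 1.33 with Alg.

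Of 10 heat shock genes, Hspa1b was at 1.10 ± 0.58 (SE) between days 7 and 14 and Hspe1 at -0.60 ± 0.33 between days 3 and 7. Among 9 integrated stress response genes, a pathway that induces Atf3, Ddit3 was at 0.87 ± 0.34 and Ddit4 at -0.84 ± 0.42 between days 7 and 14. Ddit3 reached 261 CPM in GAG on day 14, the library in which Atf3 was highest too in CPM. In FPKM, Atf3 was highest in GAG on day 3, at 19.89 against 16.05 in GAG on day 14. With GAG on day 14, 6 of the 9 stress response genes were at least 2-fold higher than Control and 1 was lower (27.8% and 30.1% of all genes). In the other 8 comparisons 0 to 4 were higher and 0 to 3 lower (6.92% to 14.6% and 6.38% to 16.1% of all genes).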

How the data were processed

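Skin of diabetic rat wounds was measured in 12 libraries, 1 for each of 4 treatments on 3 days, grouped by the labels. Per the labels, RNA was extracted with TRIzol, depleted of rRNA, and sequenced as stranded paired reads. The submitters' processing notes name bcl2fastq, FastQC, TopHat2, and edgeR, while versions, the counting tool, and the genome build are not given in the sources used here. The authors deposited raw read counts per gene, used for all tests, and FPKM values, used for levels per length and as an alternative. Both tables hold 1 further column of values that matches no sample and was not used.

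The counts were fitted by the quasi-likelihood method of edgeR 4.0.16 in R 4.3.3 (TMM, filterByExpr, glmQLFit and glmQLFTest, treatment and day as terms, 6 residual degrees of freedom, common BCV 0.495), with Benjamini-Hochberg adjustment over 16110 genes at an FDR of 0.05. Days serve as replicates in this fit, so a dressing effect that differs by day widens the spread, and p-values measure only the spread between these samples. On simulated data in which all genes had the same spread, close to this one, the fit missed most 2-fold and 4-fold changes and called most 8-fold changes. Those data held no day effect and no dressing effect that differed by day, so they do not show which changes could be called here. In the real edgeR fit the hair follicle marker Krt35 was at 9.18 ± 1.88 (log2 fold change and SE) with GAG, with an adjusted p of 0.417. A dressed library was set against the Control library of its day, without a test, as a log2 ratio of TMM-scaled reads where a gene had a sum of at least 10 reads, and at least 2-fold was the call. Intervals at 95% are exact binomial intervals on the reads (SciPy 1.17.1).

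Alternatives were DESeq2 1.42.0, limma 3.58.1 on log2 FPKM with a pseudocount of 0.1 or 1, other scalings and filters, no day or treatment block, leaving out each library, and a 4-fold call. The members and lists were chosen with earlier results of these data known. Named genes are the 10 members, the 2 genes of smallest p of each other list where none passed the FDR, and the 10 genes most like the members' mean. Of the marker lists, summed levels and correlations are given. For endothelial, hair follicle, and macrophage markers counts are given too, and for Krt35 its fold change, all added after their values were seen. The single nearest genes of Egr2, Egr3, Fos, Jun, Atf3, and Ier2, and the runners-up of Egr2 and Egr3, were named after their values were seen. Figures were drawn with matplotlib 3.10.9.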

Additional observations from a re-analysis of the deposited data

Results flagged for a closer look

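Members that stood at least 2-fold above Control on one day and at least 2-fold below it on another, with the same dressing, are listed with their log2 ratios. The difference between days was not tested, since each value compares 1 library with 1 library. Fos with d-SMG was at 2.12 on day 3, 1.41 on day 7, and -2.33 on day 14, and with GAG at 1.79 on day 3 and -3.04 on day 14. Fosb with GAG was at 2.26 on day 3 and -2.08 on day 14, and with Alg at 1.61, -1.71, and -3.28 on days 3, 7, and 14, the value of day 7 resting on 4 and 13 reads. Fosl1 with d-SMG was at -1.28 on day 7 and 4.07 on day 14, and with Alg at -1.13, -1.57, and 3.08 on the 3 days. Egr1 with GAG was at 2.38 and 1.73 on days 3 and 7 and at -1.39 on day 14. Egr2 with d-SMG was at -1.30 on day 3 and 1.06 on day 7, and Egr3 with d-SMG at -2.21 on day 3 and 1.12 on day 14, the library of day 3 being the one that held 55.1 CPM of keratinocyte markers. Atf3 with Alg was at -1.14 on day 3 and 1.49 on day 7. The reversals of Fos, of Fosl1 with d-SMG and Alg, of Fosb and Egr1 with GAG, and of Egr3 with d-SMG all involve the Control library of day 14. That of Fosb with Alg does so in part, since its ratio was below 0 on day 7 already. In that Control library Fos was highest and Fosl1 lowest of the 12 libraries, and Fosb (6.05 CPM) and Egr1 (38.0 CPM) were second highest.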

How the results depend on the processing

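No member was called in the 6 comparisons under any alternative but the one added after seeing the data, and leaving out the replicate block (day or treatment) kept the number of members called at 0. The number of genes called was 9 for d-SMG, 288 for GAG, 88 for Alg, 7 for day 14 against day 7, and 39 for day 14 against day 3 with DESeq2, against 0 in edgeR. For GAG it was 1 with no filter on low counts and 0 to 66 as each library was left out (66 without d-SMG on day 3, 1 without Alg on day 7), and without both d-SMG day 3 and GAG day 14, chosen after seeing the data, 177 genes and 1 member, Egr2, were called. Fos with d-SMG changed sign to 0.34 and 0.41 in limma on FPKM with a pseudocount of 1 and 0.1, and ranged from -0.97 to 1.72 as libraries were left out. With GAG the range of Fos was -1.77 to 1.03, and with Alg -1.96 to 0.74, each highest without Control on day 14. Jun between days 7 and 14 ranged from -0.053 to 0.43.

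Counts of members at least 2-fold from Control moved most with the fold asked for. At 4-fold they were 0 for d-SMG on day 7, 2 on day 14, 2, 1, and 3 for GAG on days 3, 7, and 14, and 0 for Alg on days 3 and 7. With FPKM and a pseudocount of 1, which shrinks low genes, they were 1 for d-SMG on day 3, 0 for Alg on day 3, and 2 for Alg on day 7, and with library size alone 5 for d-SMG on day 7. Of the 90 ratios, 10 changed sign with library size alone, 9 with either FPKM setting, and 0 with RLE size factors. None of these was a 2-fold call, the largest being 0.39 (log2). Depth limits Fosb most, with under 40 reads in 10 libraries.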
